A study of Mus musculus with 4 samples.

Results

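Fibroblast growth factor (FGF) signaling was followed through 10 genes of the mouse lung carrying 4T1 metastases: the receptor genes Fgfr1, Fgfr2 and Fgfr3, the ligand genes Fgf1, Fgf2, Fgf7 and Fgf10, and the feedback inhibitor genes Spry1, Spry2 and Spry4. They were chosen by symbol from the 56748 genes of the count table, and each symbol matched 1 row. 4T1 is a mouse triple-negative breast cancer (TNBC) cell line derived from BALB/c mice. Female BALB/cJ mice, aged 7 weeks at injection, received luciferase-labelled 4T1 cells through the tail vein and, once metastases were seen, were given saline (2 libraries) or cmLumiOpto/PARPi (2 libraries) for 3 weeks. cmLumiOpto is a gene therapy directed at mitochondria, carried here by exosome-associated AAV with an antibody to CD276 and given with the luciferase substrate ViviRen at 2 mg/kg, and the PARP inhibitor (PARPi) was olaparib at 50 mg/kg. All groups thus carried the same implanted line in an immunocompetent host, and neither agent alone was analysed here.

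The study describes the material as lung tissue with metastases and the controls as saline, while the sample labels name tumor cells taken from the lungs, a PBS control and another RNA kit. All libraries held lung RNA. Sftpc, the surfactant gene of alveolar type 2 cells, stood at 176 to 6153 CPM (a gene's reads per 1000000 of a normalized library). The epithelial keratin gene Krt8 was at 998 to 1640 CPM, but as a general epithelial gene it does not separate tumor from lung. Totals were 15263375 to 16755228 counts per library, and 3 counts, taken as the lowest detectable level, were 0.173 to 0.204 CPM by counting error only. Libraries of a group differed by more than counting noise, with a chi-square over degrees of freedom of 24.1 for saline and 41.1 for cmLumiOpto/PARPi. No source states that the libraries of a group came from separate mice, so the p-values measure only the spread between these samples. An exact permutation test of 2 libraries against 2 cannot give a two-sided p below 0.333.

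FGF ligands bind receptor tyrosine kinases together with heparan sulfate, and the activated receptors recruit FRS2 and GRB2 to switch on RAS, RAF and ERK, phospholipase C gamma and PI3K. ERK then induces its own brakes, among them the Sprouty proteins, which dampen the route from receptor to ERK. In the lung, FGF10 and FGF7 are made by mesenchymal cells and signal to the epithelium through an FGFR2 splice form, and FGF10 is needed for the airways to branch during development. The comparison asked whether RNA of this pathway differed after cmLumiOpto/PARPi.

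All 10 genes had enough counts to be tested, and in the cmLumiOpto/PARPi libraries 7 were lower and 3 higher. Groups did not overlap for 4 lower genes (Fgfr1, Fgfr2, Spry1 and Spry2), against 27.8% of all 15167 tested genes, or for 2 higher genes (Fgfr3 and Fgf7), against 27.4%. By the quasi-likelihood test of edgeR, adjusted by Benjamini-Hochberg over all tested genes, none of the 10 passed an adjusted p of 0.05, and 0% of all tested genes did. At an unadjusted p under 0.05, 4 of the 10 were lower, against 12.0% of all genes, and 1 was higher, against 9.21%. For all genes these were 1824 lower and 1397 higher. DESeq2 called 966 of 25435 genes with a p-value and edgeR's exact test 815 of 15167. Fgfr2 was the 1 gene of the 10 that each test called. The median log2 fold change of the 10 genes was -0.24 (all tested genes 0.022). Without saline replicate 1, 4 genes were lower and 6 higher, and Fgfr2 passed (log2 fold change -1.54, adjusted p = 0.0462). Without cmLumiOpto/PARPi replicate 2, 6 were lower. In bulk RNA, fewer cells of a type and less RNA per cell cannot be told apart.

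**Figure D1:**
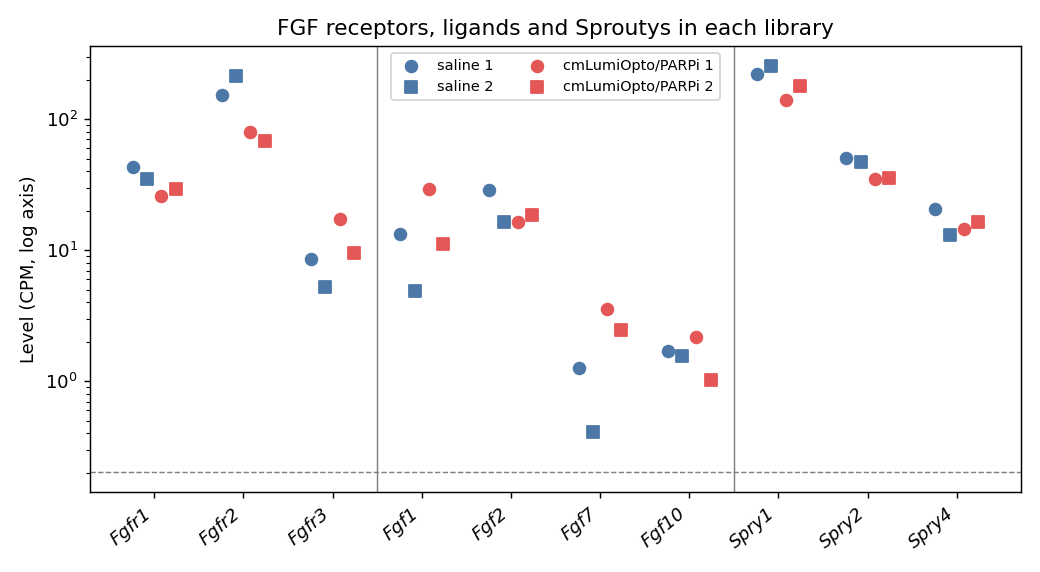
Levels of the 10 FGF pathway genes in CPM on a log axis, with 1 point for each library of the saline and cmLumiOpto/PARPi groups. Fgfr2, Fgfr1, Spry1 and Spry2 lie lower and Fgfr3 and Fgf7 higher in both cmLumiOpto/PARPi libraries, and the other 4 genes overlap.

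Compared per kilobase of transcript, Spry1, Spry2 and Fgfr2 were the most abundant of the 10 genes. In saline libraries the order was Spry1 at 81.8 ± 7.50 CPM per kb (SD, n = 2), Spry2 at 23.4 ± 1.02, Fgfr2 at 17.6 ± 4.18, Fgfr1 at 3.95 ± 0.615, Spry4 at 3.55 ± 1.12, Fgf2 at 3.32 ± 1.29, Fgf1 at 1.67 ± 1.09, Fgfr3 at 0.967 ± 0.330, Fgf10 at 0.354 ± 0.0194 and Fgf7 at 0.256 ± 0.184. Neighbours in this order from Fgfr1 to Fgfr3 overlapped in their saline libraries, as did Fgf10 and Fgf7. After cmLumiOpto/PARPi Spry1 (54.9 ± 9.63), Spry2 (16.8 ± 0.127) and Fgfr2 (7.15 ± 0.864) still stood above the other genes, which lay between 0.349 for Fgf10 and 3.71 for Fgf1.

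Promoter windows are shown for the receptor genes whose levels differed in opposite directions, Fgfr2 and Fgfr3. Each is the 250 bases before a RefSeq start on GRCm38.p6, 5′ to 3′ on the gene's strand. Capitals mark the GC box GGGCGG on either strand, a recognition sequence of Sp1-type factors. The Fgfr2 window is chr7:130266809-130267058, minus strand, and the Fgfr3 window, the more upstream of its RefSeq starts, is chr5:33721474-33721723, plus strand.
Fgfr2: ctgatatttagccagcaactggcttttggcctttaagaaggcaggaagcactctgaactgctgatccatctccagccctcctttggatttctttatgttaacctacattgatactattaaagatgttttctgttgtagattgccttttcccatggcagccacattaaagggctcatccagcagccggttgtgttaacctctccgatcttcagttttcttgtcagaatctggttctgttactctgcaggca
Fgfr3: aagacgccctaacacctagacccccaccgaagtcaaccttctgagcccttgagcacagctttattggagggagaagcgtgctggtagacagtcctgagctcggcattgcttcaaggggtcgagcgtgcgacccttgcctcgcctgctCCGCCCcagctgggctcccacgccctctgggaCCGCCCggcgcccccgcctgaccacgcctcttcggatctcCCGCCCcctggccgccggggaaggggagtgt
The Fgfr3 window held 3 GC boxes and was 66.8% GC, while the Fgfr2 window held 0 and was 44% GC. The Fgfr2 window lies inside the gene span given below (chr7:130162451-133123350, minus strand), far from its upstream end at 133123350. Other starts were not examined, so the window is not shown to be the main promoter. Of the 32851 RefSeq windows of this length, 32.7% held a GC box and the median GC content was 52.4%. The ETS core CGGAAG, on either strand (13.6% of all windows), and the AP-1 sequence TGANTCA (6.75%), both bound by factors downstream of ERK, matched in neither window. A match is a description of the letters and not of a bound site.

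Fgfr2, the receptor of FGF7 and FGF10 in epithelia, was the receptor with the widest separation between groups. Its level was 151 and 213 CPM with saline and 80.2 and 67.6 CPM with cmLumiOpto/PARPi. Both cmLumiOpto/PARPi libraries were thus below both saline libraries, at 0.406 of the saline level. The log2 fold change was -1.30 (SE 0.21, adjusted p = 0.138), and 1.13% of all tested genes had a value as low or lower. Among tested genes the log2 fold change was negatively related to gene length (Spearman rho -0.37, a description across genes), with a median of -0.27 in the fifth with the longest transcripts, which holds Fgfr2 and Fgfr1, and 0.31 in the shortest. With an offset for length and expression the value of Fgfr2 was -0.92 (adjusted p = 0.310). Fgfr2 (ENSMUSG00000030849) lies at chr7:130162451-133123350 of GRCm38, where 3.04% of its exon bases are shared with Ctbp2 on the same strand. Ctbp2 had 2877 counts over all 4 libraries, and how reads of the shared bases were assigned is not given in the sources used here.

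Fgfr1, the receptor most used by mesenchymal cells, had 43.3 and 34.7 CPM with saline and 26 and 29.5 CPM with cmLumiOpto/PARPi. The groups did not overlap, and the log2 fold change was -0.49 (SE 0.18, adjusted p = 0.215). With the offset for length and expression it was -0.26 (adjusted p = 0.548). Fgfr1 (ENSMUSG00000031565) lies at chr8:25513654-25575718.

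Fgfr3, a receptor that restrains growth of cartilage, went the other way at a lower level. It had 8.59 and 5.25 CPM with saline and 17.4 and 9.51 CPM with cmLumiOpto/PARPi. The higher saline library and the lower cmLumiOpto/PARPi library lay close together, so the separation was small. The log2 fold change was 0.96 (SE 0.41, adjusted p = 0.248), and it was 0.45 without cmLumiOpto/PARPi replicate 1 and 0.63 without saline replicate 2. Fgfr3 (ENSMUSG00000054252) lies at chr5:33721674-33737068, and 13.9% of its exon bases overlap G630022F23Rik on the opposite strand, which had 0 counts. Fgfr4, the remaining FGF receptor kinase gene, is not among the 10 and had 20 and 0 counts with saline and 93 and 17 with cmLumiOpto/PARPi, with overlapping groups (log2 fold change 2.31, SE 1.36, adjusted p = 0.368). The fitted value for Fgfr4 rests on single libraries, at 0.67 without cmLumiOpto/PARPi replicate 1, 1.32 without saline replicate 2 and 8.69 without saline replicate 1, where the remaining saline library has 0 counts.

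The make-up of receptor RNA differed between the groups, with a lower share of Fgfr2 and higher shares of Fgfr3 and Fgfr4. Fgfr2 made up 71.2% and 82.9% of the summed CPM per kb of Fgfr1 to Fgfr4 with saline and 54.1% and 58.7% with cmLumiOpto/PARPi. The share of Fgfr3 was 5.83% and 2.95% with saline and 17% and 11.9% with cmLumiOpto/PARPi. That of Fgfr4 was 1.72% and 0% against 10.5% and 2.59%. The level of Fgfr4 itself overlapped between groups, at 1.25 and 0 CPM with saline and 5.35 and 1.02 CPM with cmLumiOpto/PARPi. Fgfr2 nevertheless remained the largest share in all 4 libraries. The ratio of Fgfr2 to Fgfr3, per kb, was 12.2 and 28.1 with saline and 3.19 and 4.93 with cmLumiOpto/PARPi. The share of Fgfr1 overlapped, at 21.3% and 14.1% against 18.3% and 26.8%. The receptor sum itself was 20.6 and 24.8 CPM per kb with saline and 14.3 and 11.2 with cmLumiOpto/PARPi. These shares and ratios were described and not tested.

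**Figure D2:**
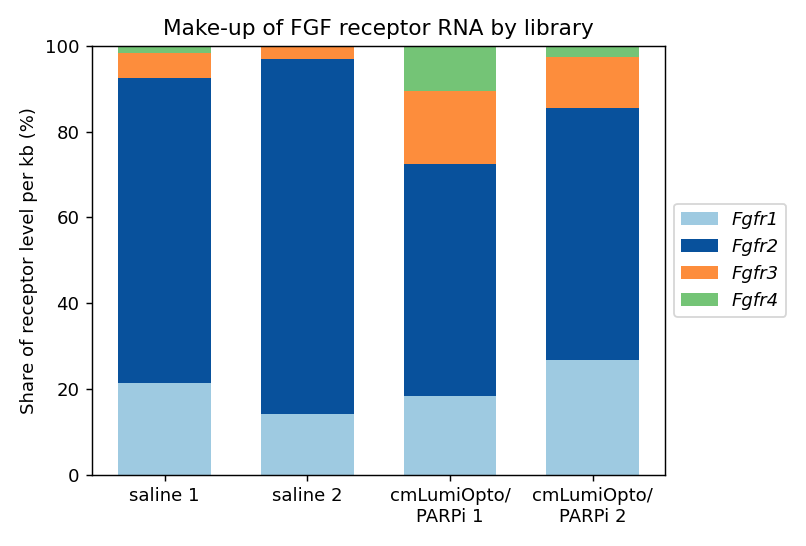
Stacked bars of the share of each receptor gene in the summed level per kb of Fgfr1, Fgfr2, Fgfr3 and Fgfr4, in percent, with 1 bar for each library. Fgfr2 fills 71.2% and 82.9% of the saline bars and 54.1% and 58.7% of the cmLumiOpto/PARPi bars, and the segments of Fgfr3 and Fgfr4 are wider in the latter.

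Per kb, the 4 ligand genes together were scarcer than the receptor genes in all 4 libraries. The window of Fgf7 is printed because this ligand had the highest log2 fold change of the 10 genes. It is the 250 bases before the RefSeq start, chr2:126034408-126034657 of GRCm38.p6, plus strand, 5′ to 3′.
Fgf7: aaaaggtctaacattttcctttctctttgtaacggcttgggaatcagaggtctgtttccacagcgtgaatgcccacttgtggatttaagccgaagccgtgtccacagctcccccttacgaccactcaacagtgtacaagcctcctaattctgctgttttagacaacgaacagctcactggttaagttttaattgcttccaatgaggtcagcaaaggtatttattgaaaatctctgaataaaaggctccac
The window was 43.6% GC and held 0 matches to the GC box, the ETS core or the AP-1 sequence searched above, so it has no capitals. Fgf7, keratinocyte growth factor, had 20 and 6 counts with saline and 62 and 41 counts with cmLumiOpto/PARPi, or 1.25 and 0.409 CPM against 3.57 and 2.47 CPM. Both cmLumiOpto/PARPi libraries were above both saline libraries, all of them at low counts. The log2 fold change was 1.84 (SE 0.63, adjusted p = 0.195), and it was 1.25 without saline replicate 2 and 2.85 without saline replicate 1. Fgf7 (ENSMUSG00000027208) lies at chr2:126034658-126091185.

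Fgf10, the branching ligand of the lung mesenchyme, had 1.69 and 1.57 CPM with saline and 2.19 and 1.02 CPM with cmLumiOpto/PARPi. The cmLumiOpto/PARPi libraries lay on either side of the saline libraries, from 17 to 38 counts. Its log2 fold change was -0.021 (SE 0.55, adjusted p = 0.988), smaller than its standard error, and with 1 library left out it ran from -0.67 (cmLumiOpto/PARPi replicate 1) to 0.40 (cmLumiOpto/PARPi replicate 2). Fgf10 (ENSMUSG00000021732) lies at chr13:118669791-118792115.

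Fgf1, the ligand that can bind every FGF receptor, had 13.4 and 4.91 CPM with saline and 29.3 and 11.2 CPM with cmLumiOpto/PARPi. Saline replicate 1 was above cmLumiOpto/PARPi replicate 2, so the groups overlapped. The log2 fold change was 1.15 (SE 0.61, adjusted p = 0.330), and it was 0.29 without cmLumiOpto/PARPi replicate 1, 0.58 without saline replicate 2 and 2.03 without saline replicate 1. Fgf2, basic FGF, a mitogen of fibroblasts and endothelium, had 28.7 and 16.4 CPM with saline and 16.5 and 18.7 CPM with cmLumiOpto/PARPi. Saline replicate 1 stood above the other 3 libraries, which were close together. The log2 fold change of Fgf2 was -0.36 (SE 0.30, adjusted p = 0.517), and it was 0.088 without saline replicate 1, the opposite sign, and -0.73 without saline replicate 2. Fgf1 (ENSMUSG00000036585) lies at chr18:38838673-38929472 and Fgf2 (ENSMUSG00000037225) at chr3:37348346-37410108. Of the exon bases of Fgf2, 9.44% overlap Nudt6 on the opposite strand. The strand setting of the counting is not given in the sources used here, so reads of the shared bases cannot be told apart.

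Among the 4 ligands, Fgf2 held 57.0% and 63.9% of the summed CPM per kb with saline and 25.9% and 47.6% with cmLumiOpto/PARPi. The share of Fgf1 was 32.9% and 23.8% with saline and 57.3% and 35.4% with cmLumiOpto/PARPi. Fgf1 exceeded Fgf2 in cmLumiOpto/PARPi replicate 1 only, with per-kb ratios of 0.577 and 0.372 for saline and 2.21 and 0.745 for cmLumiOpto/PARPi. The share of Fgf7 was 5.19% and 3.33% against 11.7% and 13.1%. The ligand sum overlapped between groups, at 7.43 and 3.78 CPM per kb with saline and 9.37 and 5.78 with cmLumiOpto/PARPi.

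**Figure D3:**
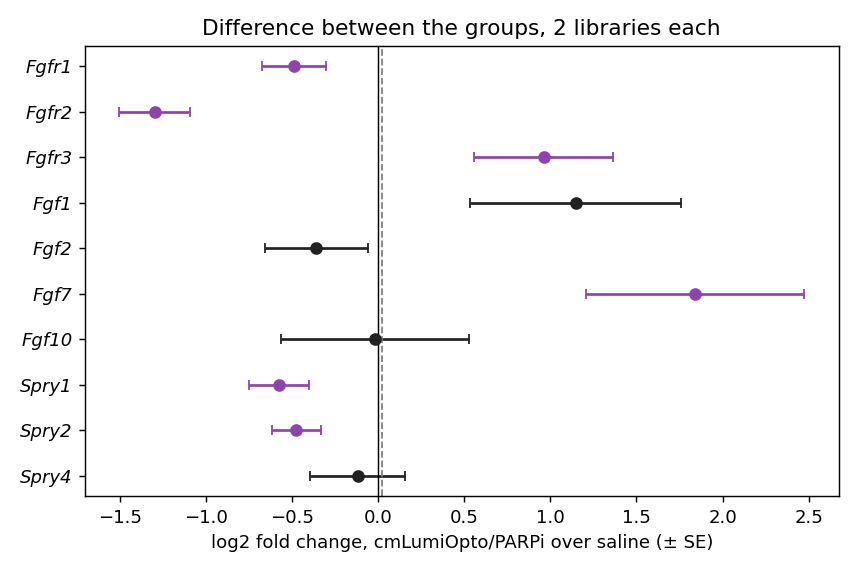
Log2 fold change of each of the 10 genes, cmLumiOpto/PARPi over saline, with bars of 1 standard error from the edgeR fit, purple where the groups do not overlap and black where they do, and a dashed line at the median of all tested genes. Values run from -1.30 for Fgfr2 to 1.84 for Fgf7, the ligand genes Fgf7, Fgf1 and Fgf10 have the widest bars, and none passed an adjusted p of 0.05.

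Of the Sprouty feedback genes, Spry1 and Spry2 were lower in both cmLumiOpto/PARPi libraries. The window of Spry1, the highest of the 10 genes per kb, is chr3:37639697-37639946 of GRCm38.p6, plus strand, 5′ to 3′, with the GC box in capitals.
Spry1: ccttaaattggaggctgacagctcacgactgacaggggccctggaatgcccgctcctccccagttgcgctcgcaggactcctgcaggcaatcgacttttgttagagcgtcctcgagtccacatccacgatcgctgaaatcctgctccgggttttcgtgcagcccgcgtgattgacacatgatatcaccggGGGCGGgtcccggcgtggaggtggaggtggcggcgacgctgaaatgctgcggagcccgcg
It held 1 GC box and was 62.4% GC, with 0 matches to the ETS core and the AP-1 sequence. Over the 7 of the 10 genes whose windows could be matched by symbol, the ETS core and the AP-1 sequence matched in none. Spry1 had 222 and 253 CPM with saline and 140 and 179 CPM with cmLumiOpto/PARPi. The groups did not overlap, and the log2 fold change was -0.58 (SE 0.17, adjusted p = 0.170). Spry1 (ENSMUSG00000037211) lies at chr3:37639947-37644598, and 24.4% of its exon bases overlap Gm42922 on the opposite strand, which had 22 counts over all 4 libraries.

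Spry2, which with Spry1 is induced by FGF signals in epithelia, had 50.4 and 47.4 CPM with saline and 34.9 and 35.3 CPM with cmLumiOpto/PARPi. Its libraries agreed closely within each group. The log2 fold change was -0.48 (SE 0.14, adjusted p = 0.166). Spry2 is in the fifth of genes with the shortest transcripts, whose median log2 fold change was 0.31, and with the offset for length and expression its value was -0.65 (adjusted p = 0.310). Spry2 (ENSMUSG00000022114) lies at chr14:105891947-105896819.

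Spry4 had 20.6 and 13.1 CPM with saline and 14.6 and 16.4 CPM with cmLumiOpto/PARPi. Both cmLumiOpto/PARPi libraries lay between the saline libraries. Its log2 fold change was -0.12 (SE 0.28, adjusted p = 0.828), and with 1 library left out it ran from -0.43 (saline replicate 2) to 0.23 (saline replicate 1). Spry4 (ENSMUSG00000024427) lies at chr18:38586247-38601415. The Sprouty sum was 105 and 113 CPM per kb with saline and 67.9 and 82.1 with cmLumiOpto/PARPi, while its make-up overlapped, with Spry1 at 72.9% and 77.4% against 70.8% and 75.2%.

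The other genes of the pathway were taken from lists of 73 genes, of which Spry3 was not analysed here, 72 were in the table and 55 were tested. Of these 55, 42 were lower and 13 higher after cmLumiOpto/PARPi, with a median log2 fold change of -0.29. Groups did not overlap for 30 lower and 3 higher genes, against 27.8% and 27.4% of all tested genes. By the same edgeR test none of the 55 passed the adjusted threshold. Unadjusted p-values under 0.05 were found for 16 lower and 1 higher gene, against 12.0% and 9.21% of all tested genes. DESeq2 called 4 (Sdc3, Gpc1, Spred2 and Cbl), against 966 of 25435 genes in all. The exact test of edgeR called Spred2 alone, against 815 of 15167 genes in all. With the offset for length and expression, 40 were lower and 15 higher and the median was -0.18.

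The list of feedback inhibitors outside the Sprouty genes also held Flrt2 and Flrt3, for which an inhibitor role is not shown here. All 11 tested genes of the list were lower, 8 of them without overlap (27.8% of all tested genes), with a median of -0.49. With the offset 10 were lower with a median of -0.21. Flrt2 (log2 fold change -0.64) and Flrt3 (-0.22) had overlapping groups. Spred2, a Sprouty-related inhibitor of RAF activation, had 123 and 126 CPM with saline and 58.5 and 67.7 CPM with cmLumiOpto/PARPi (log2 fold change -0.98, SE 0.14, adjusted p = 0.138). Cbl, a ubiquitin ligase for receptor tyrosine kinases, had 90.0 and 82.5 CPM against 56.2 and 58.3 CPM (log2 fold change -0.59, adjusted p = 0.138). With the offset Spred2 was at -0.85 and Cbl at -0.21.

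Receptor adaptors were lower for 8 of 9 genes, 7 without overlap (27.8% of all tested genes), with a median of -0.42 and of -0.23 with the offset. Frs2, the docking protein that FGF receptors phosphorylate, had 47.4 and 63.8 CPM with saline and 36.0 and 35.9 CPM with cmLumiOpto/PARPi (log2 fold change -0.63, adjusted p = 0.166, -0.39 with the offset and -0.41 without saline replicate 2). Plcg1, phospholipase C gamma, had 101 and 103 CPM against 65.4 and 75.9 CPM (log2 fold change -0.53, adjusted p = 0.145, and -0.25 with the offset). Both cmLumiOpto/PARPi libraries were below both saline libraries for each gene.

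The cascade from RAS to ERK was mixed, with 7 of 10 genes lower, 3 higher and a median of -0.11. Hras had 55.5 and 42.8 CPM with saline and 75.7 and 68.1 CPM with cmLumiOpto/PARPi (log2 fold change 0.55, adjusted p = 0.179, and 0.36 without saline replicate 2). Braf had 24.5 and 29 CPM against 19.6 and 16.2 CPM (log2 fold change -0.58, adjusted p = 0.197, and -0.31 with the offset). Araf, which encodes a related kinase, had a log2 fold change of the opposite sign, 0.12 (adjusted p = 0.628), which was 0.32 with the offset and 0.070 without cmLumiOpto/PARPi replicate 1.

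The list of other receptors and coreceptors held heparan sulfate carriers, Fgfr4, Fgfrl1 and the FGF-binding protein genes Fgfbp1 and Fgfbp3. Of its 11 tested genes 7 were lower, 4 without overlap (27.8% of all tested genes), with a median of -0.17. Sdc3, a syndecan, had 268 and 224 CPM with saline and 172 and 143 CPM with cmLumiOpto/PARPi (log2 fold change -0.64, adjusted p = 0.145, and -0.37 with the offset). Gpc1, a glypican, had 670 and 719 CPM against 404 and 511 CPM (log2 fold change -0.60, adjusted p = 0.164, and -0.34 with the offset). Of the ERK-responsive target genes 8 of 10 were lower, 5 without overlap (27.8% of all tested genes), with a median of -0.43. Etv5, an ETS factor gene induced by FGF, had 92.5 and 81.4 CPM against 65.7 and 65.8 CPM (log2 fold change -0.40, adjusted p = 0.188). Etv1 had 104 and 150 CPM against 83.7 and 90.1 CPM (log2 fold change -0.55, adjusted p = 0.207, -0.12 with the offset and -0.28 without saline replicate 2).

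Ligand genes outside the 4 were near the limit of detection. Of 14, 6 had 0 counts in every library, 6 had counts too low to be tested and 2 were tested. Fgf22 had 0.690 and 0.681 CPM with saline and 0 and 0.301 CPM with cmLumiOpto/PARPi (log2 fold change -2.15, adjusted p = 0.317). Its fitted value was -1.17 without cmLumiOpto/PARPi replicate 1 and -6.48 without cmLumiOpto/PARPi replicate 2, where the remaining treated library has 0 counts. Of the FGF homologous factors, which stay inside the cell, 2 of 4 were tested. Fgf13 had 0.188 and 0.477 CPM with saline and 0.921 and 0.662 CPM with cmLumiOpto/PARPi (log2 fold change 1.25, adjusted p = 0.359), and its value was 0.71 without saline replicate 1 and 2.02 without saline replicate 2.

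**Figure D4:**
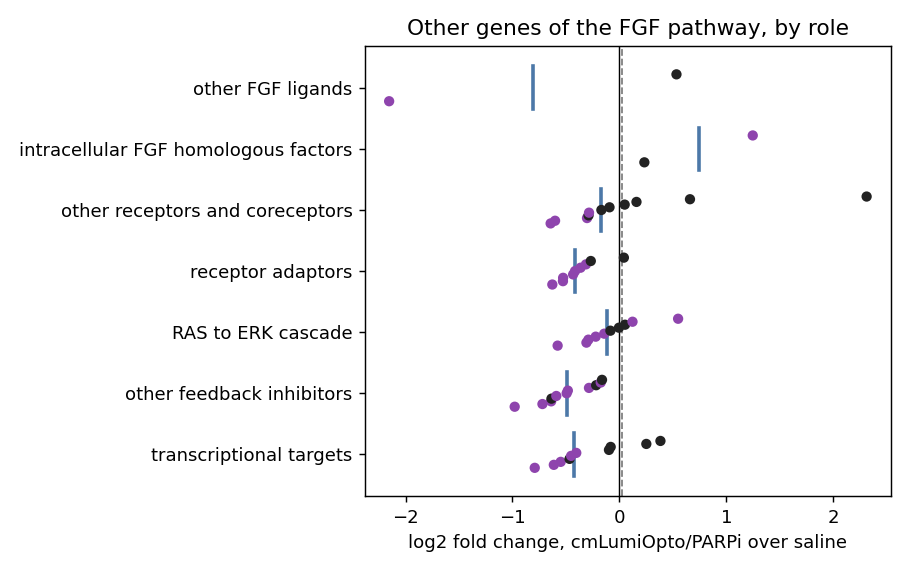
Log2 fold changes of the tested pathway genes, cmLumiOpto/PARPi over saline, with 1 point per gene (purple where the groups do not overlap, black where they do), a blue bar at each list's median and a dashed line at the median of all tested genes. The genes of the feedback inhibitor list, which includes Flrt2 and Flrt3, all lie below 0. The adaptors do so for 8 of 9 genes, and the RAS to ERK genes lie on both sides.

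Markers of alveolar, airway and fibroblast cells differed between the groups, and their part in the FGF results was not tested. Of all tested genes, 27.4% were higher and 27.8% lower without overlap. The alveolar type 2 markers summed to 1719 and 464 CPM with saline and 8328 and 2973 CPM with cmLumiOpto/PARPi, and 7 of 8 were higher without overlap. Abca3 was the exception, lower without overlap at 147 and 129 CPM with saline and 125 and 94.0 CPM with cmLumiOpto/PARPi. The alveolar type 1 markers summed to 312 and 132 against 878 and 431 CPM (5 of 7 higher without overlap) and the airway markers to 1155 and 82.2 against 5696 and 2988 CPM (7 of 7), with Dnah5 at 0 in saline replicate 2. From lowest to highest, the 4 libraries stood in the same order for these 3 sums, Fgfr3 and Fgf7, namely saline replicate 2, saline replicate 1, cmLumiOpto/PARPi replicate 2 and cmLumiOpto/PARPi replicate 1. The sums and both genes were higher without overlap, so only the order within each group could differ, and the match was not tested. Fgf1 was likewise lowest in saline replicate 2 and highest in cmLumiOpto/PARPi replicate 1. Single abundant genes made up a large part of these 3 sums. In cmLumiOpto/PARPi replicate 1, Sftpc was 6153 of the 8328 CPM of the alveolar type 2 sum, and Ager 474 of the 878 CPM of the alveolar type 1 sum. Scgb1a1 was 5304.5 of the 5696 CPM of the airway sum there.

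The fibroblast markers summed to 4140 and 3161 CPM with saline and 1475 and 1638 CPM with cmLumiOpto/PARPi. Of these markers 6 of 8 were lower without overlap, against 27.8% of all tested genes. Tcf21 was the exception among them, higher without overlap, and 1 marker overlapped. Fgfr1, Fgfr2, Spry1 and Spry2 were also lower without overlap. The libraries stood in the order of the fibroblast sum for Fgfr1 and Spry2, while Fgfr2 and Spry1 were highest in saline replicate 2. Here too, only the order within each group could differ. Between the groups, Fgfr2 was lower and the alveolar and airway sums were higher with cmLumiOpto/PARPi. Within the cmLumiOpto/PARPi group the order was not opposite, as replicate 1 had both the higher Fgfr2 level and the higher sums. The mammary tumor epithelium markers overlapped in sum, at 3534 and 3794 against 3208 and 4269 CPM, and for 7 of 9 genes. Genes of this list such as Krt8 and Epcam mark epithelium in general, so the sum does not separate tumor from lung epithelium. Smooth muscle and pericyte markers summed to 261 and 287 against 231 and 198 CPM. Of them 3 were lower (27.8% of all tested genes), 1 was higher (27.4%) and 3 overlapped. Endothelial markers summed to 487 and 365 against 800 and 413 CPM (3 of 7 higher without overlap, against 27.4% of all tested genes). Leukocyte markers summed to 984 and 565 against 739 and 992 CPM, overlapping in sum.

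**Figure D5:**
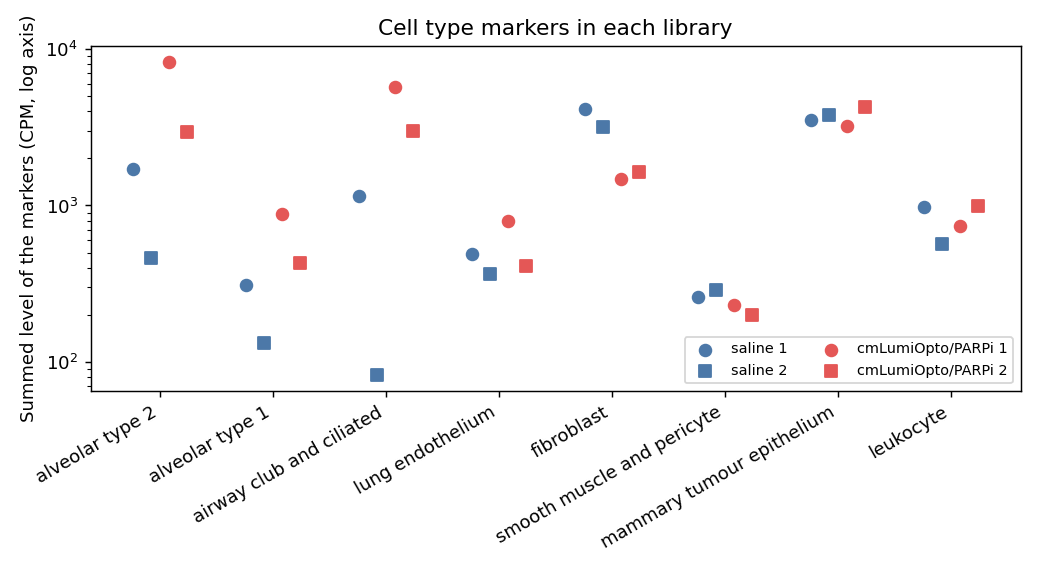
Summed level of each cell type's markers in CPM on a log axis, with 1 point for each library. The alveolar and airway sums are higher and the fibroblast sum lower in both cmLumiOpto/PARPi libraries, and the mammary tumor sum overlaps between groups.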

How the data were processed

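Bulk RNA sequencing of 4 libraries (2 saline, 2 cmLumiOpto/PARPi) was used. Reads were mapped with HISAT2 by the authors, and the deposited values are whole-number counts for each gene, not normalized. The methods name GRCm38 while the submitters' processing notes list mm39. Only 2.83% of the 52073 genes found in GENCODE M21 shared their start and end with it, and gene positions printed are those of M21 on GRCm38. The counting tool is not given in the sources used here. Groups came from the sample titles.

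From the counts, differential expression was tested on the whole table with edgeR 4.0.16 in R 4.3.3 (filterByExpr with a minimum count of 10, TMM, glmQLFit and glmQLFTest with default options, Benjamini-Hochberg adjustment over 15167 genes, threshold 0.05). CPM used TMM-scaled library sizes, and CPM per kb the length given in the table. The standard error is the size of the log2 fold change divided by the square root of F. Totals of 15263375 to 16755228 counts set the precision. Promoter windows came from RefSeq on GRCm38.p6 and matched 7 of the 10 genes by symbol. Steps were tested on simulated data.

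Genes named were all 10, and of each pathway list up to 2 tested genes in each direction with the smallest p among those whose groups did not overlap, plus Fgfr4. Some results that this rule or the marker lists would give are not reported here. Markers named were chosen after their values were seen. The 10 genes and the lists were chosen with earlier results of these data known. Alternatives were RLE normalization, DESeq2 1.42.0, no filter on low counts, glmQLFit without its legacy option, edgeR's exact test, the replicate number as a block, a loess offset (span 0.5) for length and expression with and without that block, and leaving out each library. Same-numbered libraries share no stated mouse or batch, so the main design has no block.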

Additional observations from a re-analysis of the deposited data

How the results depend on the processing

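Without any adjusted call in the main test, RLE normalization, glmQLFit without its legacy option and the length and expression offset likewise gave 0 calls among all genes, the 10 FGF genes and the 55 pathway genes. In the same order, DESeq2 gave 966, 1 and 4 calls, no filter on low counts 2000, 5 and 12, and edgeR's exact test 815, 1 and 1. The genes in all were 25435 for DESeq2 and without the filter, and 15167 for the exact test. Leaving out 1 library gave 0 to 31 calls among all genes, 0 to 1 among the 10 and 0 among the pathway genes, the lone library of a group being taken to vary like the other group. The call among the 10 was Fgfr2, which passed in 6 of 12 alternatives, with log2 fold changes of -1.54 to -0.90.

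With the replicate block there were 1822 calls among all genes, 4 among the 10 (Fgfr2, Fgfr3, Fgf1 and Spry1) and 10 among the pathway genes, and 510, 2 and 2 with the offset and the replicate block together. Deviations of same-numbered libraries from their group means had a Spearman rho of 0.298, but with 2 pairs the number is not shown to pair them. Why the counts of calls differed was not tested.

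Direction held in all 12 alternatives for Fgfr1, Fgfr2, Fgfr3, Fgf1, Fgf7, Spry1 and Spry2. With 1 library left out the log2 fold change ran from -0.73 to 0.088 for Fgf2, -0.67 to 0.40 for Fgf10 and -0.43 to 0.23 for Spry4. These 3 genes had overlapping groups. Among values of single named genes under the alternatives, 262 kept direction and side of the threshold, 34 kept direction and passed it, and 4 turned. Counts were lowest for Fgf7 (6 to 62 per library) and Fgf10 (17 to 38), where counting error is widest.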

Other observations

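Some feedback and target genes outside the naming rule, chosen after their values were seen, show how far ERK-responsive genes differed in size. Dusp6, an ERK phosphatase, had 289 and 286 CPM with saline and 236 and 273 CPM with cmLumiOpto/PARPi (log2 fold change -0.17, SE 0.14, adjusted p = 0.514 by edgeR's quasi-likelihood test). Dusp5, which acts on ERK in the nucleus, had 29.7 and 34.3 CPM against 17.6 and 21.3 CPM (log2 fold change -0.72, SE 0.19, adjusted p = 0.148). Fosl1, an AP-1 subunit gene, had 14.5 and 20.0 CPM against 7.60 and 12.3 CPM (log2 fold change -0.79, SE 0.32, adjusted p = 0.235). Ccnd1, cyclin D1, had 1377 and 1667 CPM against 829 and 1161 CPM (log2 fold change -0.61, SE 0.23, adjusted p = 0.211). Fos and Egr1 had overlapping groups, with log2 fold changes of 0.38 (SE 0.28) and -0.082 (SE 0.35). Grb2, the adaptor that links FRS2 to RAS, was at 149 and 147 CPM with saline and 147 and 157 CPM with cmLumiOpto/PARPi, the 1 adaptor not lower.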
